A study of Rattus norvegicus with 6 samples.

Results

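Chemokines, interleukins and their receptors were followed in freshly sorted mural cells of the rat cortex, in vascular smooth muscle cells of parenchymal arterioles (VSMCs) and in mid-capillary pericytes (mcPCs). The genes were chosen by their symbols, as rows whose Gene_Symbol begins with Ccl, Cxcl, Ccr, Cxcr, Cx3c, Xcl, Xcr, Ackr or Il and a number, with Ccrl2 added. Of the 14607 genes of the table, 66 met this rule, and no measured value entered it. RNA-Seq was performed on 6 samples, 3 of VSMCs and 3 of mcPCs, from male Sprague-Dawley rats of 4 to 5 weeks with no treatment and no genetic modification. Each isolation pooled the cortices of several rats after perfusion, and both cell types were taken from it. The 3 VSMC and 3 mcPC samples thus come from 3 shared isolations and are not 6 independent ones. VSMCs were digested out of arterioles held back by a filter, depleted of CD31+ and CD11b+ cells and sorted positively with a lectin. mcPCs were what remained of the filtrate once CD31+, CD11b+, GLAST+ and O4+ cells had been removed, so the fraction could keep other cells that these antibodies left behind.

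Chemokines are small secreted proteins that guide the movement of leukocytes, and are named by the spacing of their first cysteines. They act on receptors coupled to Gi proteins. Atypical chemokine receptors bind or take up the same ligands without that coupling. Many interleukins act on receptor chains that recruit JAK kinases and STAT factors. The receptors of IL-1 and IL-18 instead use the adaptor MyD88 and those of IL-17 the adaptor Act1, and both lead to NF-κB. IL-34 differs from these, as its receptor is a tyrosine kinase. In the brain, vessel-associated cells are known to release chemokines when they meet inflammatory stimuli, and both CXCL12 and IL-34 are made there in the absence of inflammation.

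The data are the authors' means of each cell type, with no value per sample, so the spread between isolations is not known here and no test over samples was run. Levels are given as TPM, the share of a transcript in a library corrected for its length. Differences are ratios of the authors' mean normalized counts, mcPCs over VSMCs or the reverse, and a gene is called higher in a cell type when this ratio is 2 or more. The 95% intervals come from the number of reads and cover counting error only, not the variation between isolations. The mean number of reads assigned to the genes of the table was 61978061 per VSMC sample and 47990230 per mcPC sample. All 10 of the smooth muscle markers examined were called higher in VSMCs, and of 10 pericyte markers 7 were called higher in mcPCs and none in VSMCs. Erythrocyte genes took 54.4% of the mcPC TPM and 0.728% of the VSMC TPM, so the TPM of a typical gene is lower in mcPCs, with a median log2 ratio of -1.79 over all genes. The median over all genes was 0.01 on normalized counts. For this reason TPM is used below for the order of genes within a cell type, beside the percentile among all genes, and not for the difference between cell types.

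Of the 66 genes, 41 were called higher in mcPCs (62.1%, against 22.0% of all genes) and 8 in VSMCs (12.1%, against 13.9% of all genes). The median log2 ratio of the 66 genes was 1.46. When the whole counting interval had to lie beyond 2-fold, 35 were higher in mcPCs and 8 in VSMCs, with backgrounds of 18.7% and 11.9%. As a family they were sparse, with 23 of the 66 under 1 TPM in both cell types. Only 13 reached 10 TPM in VSMCs, or 19.7% against 55.0% of all genes, and 9 in mcPCs, or 13.6% against 24.3%. Low abundance in VSMCs and a ratio towards mcPCs went together over the whole table. The VSMC level also enters the ratio as its denominator, and each gene had a read in every mcPC sample, so this link arises in part by construction. Of all genes under 0.8 TPM in VSMCs, 67.4% were called higher in mcPCs, and of the 29 members at that level 22, or 75.9%. Of the 37 members at or above 0.8 TPM in VSMCs, 19 were called higher in mcPCs, or 51.4%, against 13.1% of all genes at that level. In a bulk sample, fewer cells of a type cannot be told apart from less RNA per cell.

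**Figure D1:**
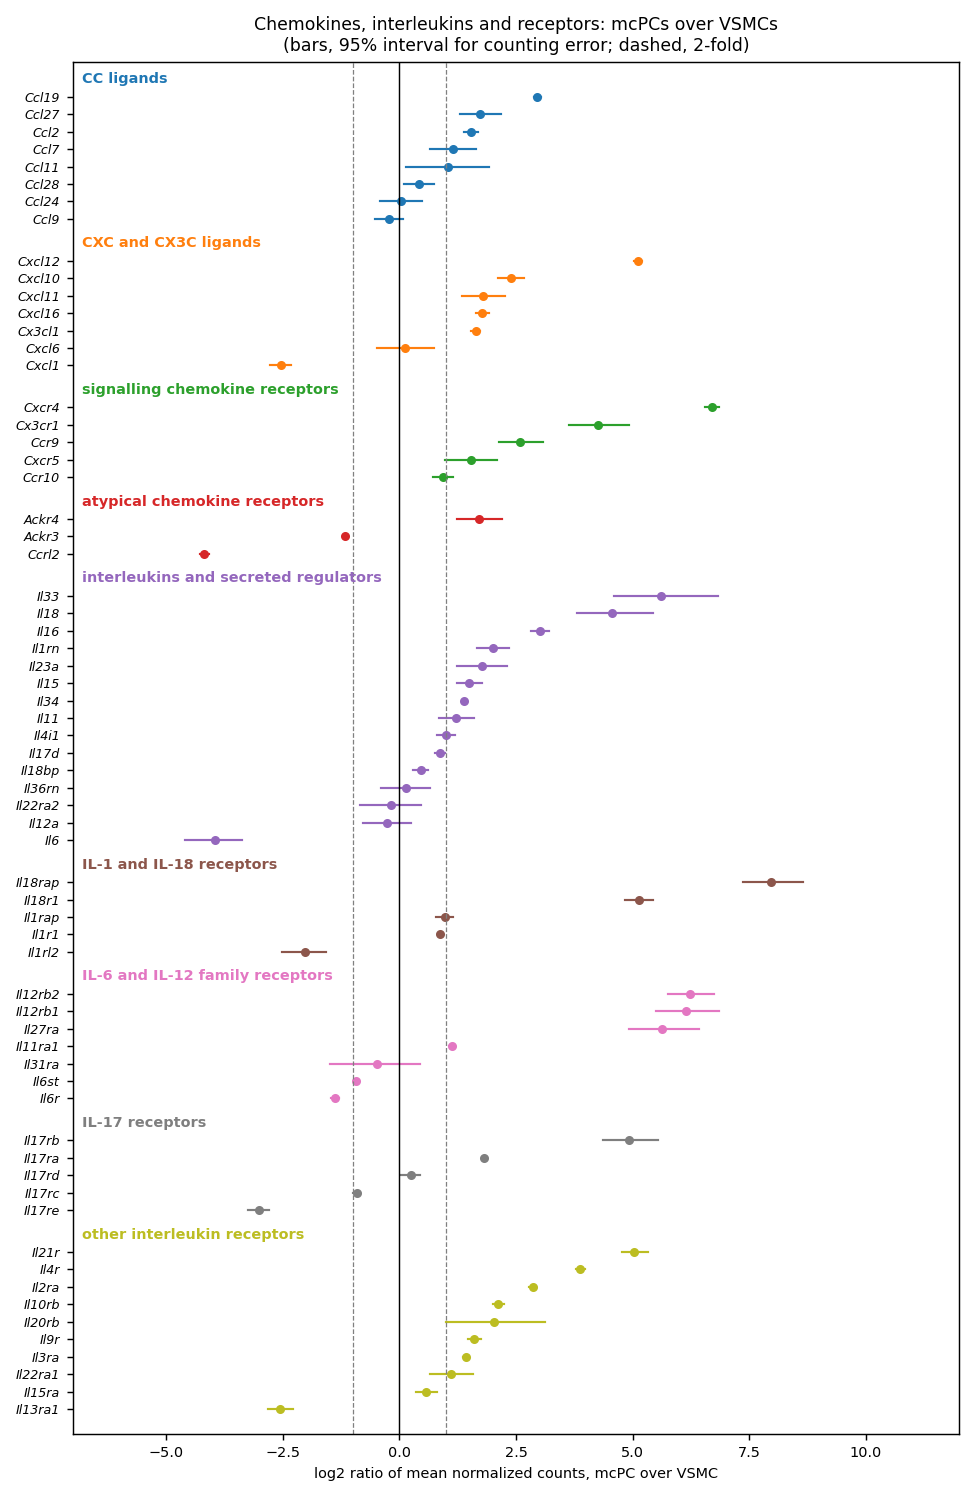
Log2 ratio of the authors' mean normalized counts, mcPCs over VSMCs, by role, with 95% intervals for counting error as bars and 2-fold as dashed lines. The points run from -4.18 for Ccrl2 to 7.96 for Il18rap, and 8 lie at or beyond the left dashed line.

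The promoters of 4 inflammatory genes are shown because each holds a motif that was searched for and because they differ in direction, Il6 and Cxcl1 being higher in VSMCs and Ccl19 and Cxcl10 in mcPCs. They were picked after their values were seen. They come from RefSeq on GRCr8 and cover 250 bases before to 50 bases after the gene start, read 5′ to 3′ on the strand of the gene. Capitals mark an NF-κB motif (GGGNNTTTCC) in Il6 and Cxcl1, an interferon-stimulated response element (GAAANNGAAA) in Ccl19 and Cxcl10, and an AP-1 motif (TGANTCA) in Cxcl10. Each motif was searched in this exact form only. Near matches, such as gggaaattcc and gggaacttcc in Cxcl10 beside the NF-κB motif, are not marked. A promoter without capitals for a motif may therefore still hold related letters.
Il6 promoter, chr4:5894526-5894825, minus strand: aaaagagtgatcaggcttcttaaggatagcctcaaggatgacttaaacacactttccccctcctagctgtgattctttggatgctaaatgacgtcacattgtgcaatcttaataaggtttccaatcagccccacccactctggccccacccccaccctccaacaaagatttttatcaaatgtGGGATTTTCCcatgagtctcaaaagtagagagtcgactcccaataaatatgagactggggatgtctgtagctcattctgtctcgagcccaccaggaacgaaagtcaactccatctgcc
Cxcl1 promoter, chr14:17479272-17479571, minus strand: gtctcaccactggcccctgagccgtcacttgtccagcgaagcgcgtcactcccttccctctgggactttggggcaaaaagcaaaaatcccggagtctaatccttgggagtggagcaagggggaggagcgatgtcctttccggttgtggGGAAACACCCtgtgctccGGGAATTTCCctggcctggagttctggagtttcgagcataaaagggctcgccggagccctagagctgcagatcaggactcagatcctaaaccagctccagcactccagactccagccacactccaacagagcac
Ccl19 promoter, chr5:61761115-61761414, minus strand: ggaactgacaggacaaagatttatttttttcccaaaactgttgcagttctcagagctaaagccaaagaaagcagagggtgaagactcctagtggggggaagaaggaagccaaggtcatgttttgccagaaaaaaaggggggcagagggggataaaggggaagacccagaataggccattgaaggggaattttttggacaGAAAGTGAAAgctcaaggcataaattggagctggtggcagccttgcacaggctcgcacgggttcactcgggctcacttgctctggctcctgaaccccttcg
Cxcl10 promoter, chr14:15988816-15989115, plus strand: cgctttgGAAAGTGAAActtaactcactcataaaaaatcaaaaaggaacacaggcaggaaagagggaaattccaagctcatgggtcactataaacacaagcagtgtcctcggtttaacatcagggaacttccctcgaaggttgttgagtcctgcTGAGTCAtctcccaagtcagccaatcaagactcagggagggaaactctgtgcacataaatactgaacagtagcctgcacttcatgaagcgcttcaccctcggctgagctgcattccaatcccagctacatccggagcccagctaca

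Il6 holds its NF-κB motif 68 bases before the start and Cxcl1 holds 2 of them, 102 and 84 bases before it, the first on the opposite strand. Ccl19 has the interferon element 51 bases before the start, and Cxcl10 has it 243 bases before. Promoters matched 53 of the 66 genes, and both strands were searched. The NF-κB motif was found in 6 of these 53 promoters (Ccl9, Cxcl1, Cxcl6, Il1rn, Il4r and Il6), or 11.3%, against 1.51% of all 27457 promoters of this length. The interferon element was found in 6 promoters, 11.3% against 3.77%, and AP-1 in 8, 15.1% against 7.33%. The CArG box, bound by serum response factor in smooth muscle genes, was in that of Il1rl2 and no other of the 53, against 1.64% of all promoters. Over the 10884 promoters of genes in the table, the shares were 1.62% for NF-κB, 2.90% for the interferon element, 4.84% for AP-1 and 1.31% for the CArG box. Of the genes called higher in VSMCs, 7 had a promoter, and 2 held the NF-κB motif, 0 the interferon element and 0 the AP-1 motif. Of those called higher in mcPCs, 32 had a promoter, 2 held the NF-κB motif, 3 the interferon element and 7 the AP-1 motif. A match of letters is a description and does not show that a factor binds.

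The CC chemokines were led by Ccl19, a ligand of CCR7 that draws dendritic cells and T cells. Ccl19 (ENSRNOG00000015668) had 25.7 TPM in VSMCs, above 66.003% of all genes, against 55.7 in mcPCs, above 95.8%. On normalized counts it was 7.78-fold higher in mcPCs (95% interval 7.38 to 8.20), from 585 and 2318 reads per sample. Ccl2, the main attractant of monocytes, came second at 8.04 and 6.65 TPM and was 2.91-fold higher in mcPCs (2.63 to 3.22). The other 6 were under 2.5 TPM in both cell types. Ccl27, a skin chemokine, and Ccl7, a relative of Ccl2, had ratios of 3.31 (2.45 to 4.50) and 2.21 (1.58 to 3.10) towards mcPCs. Ccl11, which attracts eosinophils, reached 2.05, but on 8 and 7.67 reads per sample its interval ran from 1.11 to 3.79. Ccl9, Ccl24 and Ccl28 stayed within 2-fold, with log2 ratios of -0.22, 0.04 and 0.42. No CC chemokine was called higher in VSMCs.

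The CXC and CX3C chemokines held genes far apart in both directions. Cxcl12 (ENSRNOG00000013589), the ligand of CXCR4 and ACKR3 that retains blood progenitors and guides migrating neurons, had 1.92 TPM in VSMCs against 18.8 in mcPCs, and was 34.7-fold higher in mcPCs (32.8 to 36.8). Cxcl1 (ENSRNOG00000002802), which attracts neutrophils, stood at the other end, with 22.3 TPM in VSMCs against 1.16 in mcPCs. It was 5.78-fold higher in VSMCs (4.96 to 6.78), from 644 and 59.7 reads per sample, and was the one chemokine ligand called higher in that cell type. The interferon-induced ligands of CXCR3 were low, with 1.33 and 2.02 TPM for Cxcl10 and 0.382 and 0.406 TPM for Cxcl11. Both were called higher in mcPCs, 5.28-fold (4.36 to 6.42) and 3.49-fold (2.55 to 4.80). The membrane-bound chemokines Cx3cl1, or fractalkine, and Cxcl16 had 4.66 and 4.14 TPM and 3.96 and 3.96 TPM, and ratios of 3.11 (2.92 to 3.31) and 3.44 (3.14 to 3.77). Cxcl6 had a log2 ratio of 0.12 on 22.1 and 12.5 reads per sample, and its interval included 0.

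Receptors of the signalling kind were scarce in VSMCs, where the 5 described here lay between 0.175 and 2.04 TPM. In mcPCs Cxcr4 (ENSRNOG00000003866) reached 62.3 TPM, above 96.2% of all genes, against 2.04 TPM in VSMCs. It was 103-fold higher in mcPCs (93.4 to 115) on 125 and 7033 reads per sample. Cx3cr1, the fractalkine receptor of microglia, had 0.177 and 0.978 TPM and was 19.2-fold higher in mcPCs (12.4 to 30.1). Ccr9 and Cxcr5, receptors of gut-homing and follicular lymphocytes, stayed under 0.4 TPM in both, with ratios of 6.02 (4.40 to 8.44) and 2.90 (1.98 to 4.27). Ccr10 had 1.82 and 1.0004 TPM and fell just short of the call, at 1.91 (1.64 to 2.23).

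The atypical receptors went the other way, apart from a scarce one. Ackr3 (ENSRNOG00000019622), a scavenger of CXCL12, was the most abundant of the 66 genes in VSMCs, with 326 TPM, above 96.7% of all genes, and still had 40.7 TPM in mcPCs, above 93.99%. It was 2.24-fold higher in VSMCs (2.20 to 2.28). Ccrl2 (ENSRNOG00000033234), which binds the chemoattractant chemerin and presents it to other cells, had 136 TPM in VSMCs against 2.11 in mcPCs. It was 18.1-fold higher in VSMCs (16.9 to 19.4), the lowest log2 ratio of the 66 at -4.18, on 9774 and 277 reads per sample. Ackr4, a scavenger of CCL19, had 0.281 and 0.271 TPM and was 3.26-fold higher in mcPCs (2.36 to 4.57). The 2 receptors of CXCL12 therefore stood in different proportions. In VSMCs the TPM of Ackr3 was 160 times that of Cxcr4, and in mcPCs it was 0.654 times.

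**Figure D2:**
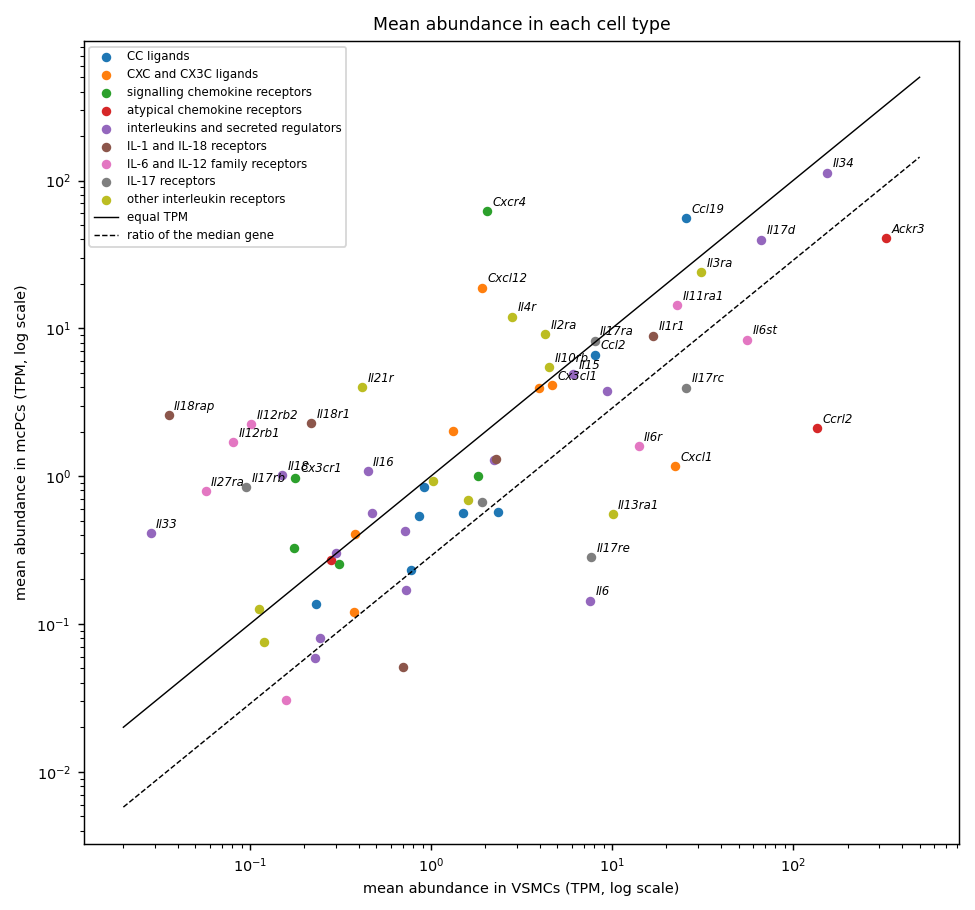
Mean abundance of the genes in VSMCs and mcPCs (TPM, both axes logarithmic), coloured by role. The solid line marks equal TPM and the dashed line the ratio of the median gene. Ackr3, Ccrl2, Cxcl1 and Il6 lie below the dashed line and Cxcr4 and Cxcl12 above it.

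Among interleukins and their secreted regulators, Il34 (ENSRNOG00000017602) was the most abundant. It encodes a second ligand of the CSF1 receptor, on which microglia depend. Its level was 154 TPM in VSMCs, above 93.3% of all genes, against 113 in mcPCs, above 97.9%, and on normalized counts it was 2.62-fold higher in mcPCs (2.58 to 2.66). Il17d followed in TPM, with 66.6 and 39.7, but its effective length was 152 bases and its level rested on 389 and 529 reads per sample. Its ratio was 1.83 (1.69 to 1.97). Il15, a growth factor of natural killer cells, also had a short effective length of 282 bases, and was 2.83-fold higher in mcPCs (2.37 to 3.39) at 6.09 and 4.88 TPM. Il6 (ENSRNOG00000010278), the acute-phase cytokine, had 7.56 TPM in VSMCs against 0.144 in mcPCs. It was 15.5-fold higher in VSMCs (10.4 to 24.1), and in mcPCs it rested on 8.33 reads per sample. No other interleukin was called higher in VSMCs.

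Alarmins and other interleukins higher in mcPCs were scarce. Il33, a nuclear cytokine released by damaged cells, had 0.0283 and 0.412 TPM and was 48.6-fold higher (24.2 to 114), on 2.67 reads per sample in VSMCs. Il18, which is matured by inflammasomes, had 0.150 and 1.02 TPM and a ratio of 23.6 (13.9 to 43.1). The antagonist of IL-18, Il18bp, was more abundant than Il18 in both cell types, at 9.40 and 3.74 TPM, and was within 2-fold at 1.37 (1.23 to 1.53). Il16, an attractant of CD4+ cells, was 8.07-fold higher in mcPCs (7.05 to 9.27) at 0.447 and 1.08 TPM. Il1rn, the antagonist of the IL-1 receptor, was 4.01-fold higher (3.18 to 5.10), Il23a 3.40-fold (2.35 to 4.97) and Il11 2.32-fold (1.79 to 3.02), all under 0.8 TPM. Il4i1, an amino acid oxidase, sat on the limit at 2.002 (1.76 to 2.28). Il12a, Il22ra2 and Il36rn had intervals that included equal expression.

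Receptors of the IL-1 and IL-18 kind were divided. Il1r1, the signalling receptor of IL-1, had 16.9 TPM in VSMCs against 8.92 in mcPCs and a ratio of 1.83 towards mcPCs (1.76 to 1.90). Its partner Il1rap had 2.29 and 1.30 TPM and a ratio of 1.96 (1.74 to 2.22), so neither was called. The chains of the IL-18 receptor were both far higher in mcPCs. Il18r1 had 0.218 and 2.29 TPM and was 35.1-fold higher (28.5 to 43.2). Il18rap had 0.0355 and 2.59 TPM and a log2 ratio of 7.96 (7.37 to 8.65) on 7.37 and 962 reads per sample. Il1rl2, the receptor of IL-36, was 4.07-fold higher in VSMCs (2.95 to 5.72) but reached 0.704 TPM at most.

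Il6r, like Il6, was higher in VSMCs. This binding chain of the receptor (ENSRNOG00000020811) had 14.0 TPM in VSMCs against 1.60 in mcPCs and was 2.60-fold higher in VSMCs (2.46 to 2.75). Il6st, the shared signalling chain, was the more abundant at 55.7 and 8.38 TPM, and lay just under the call with a ratio of 1.90 towards VSMCs (1.85 to 1.96). Il11ra1, which pairs with the same chain for IL-11, had 23.0 and 14.3 TPM and was 2.19-fold higher in mcPCs (2.10 to 2.28). The chains of the IL-12 and IL-27 receptors were near the bottom of the table in VSMCs, at 0.102 TPM or less. In mcPCs Il12rb2 had 2.25 TPM, Il12rb1 1.69 TPM and Il27ra 0.792 TPM. They were 74.9-fold (54.1 to 107), 70.2-fold (45.1 to 116) and 49.2-fold (30.4 to 85.2) higher in mcPCs. Il31ra was under 0.2 TPM in both, and its interval included equal expression.

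The chains of the IL-17 receptor did not share a direction. Il17ra, the common chain, had 8.01 and 8.26 TPM and was 3.54-fold higher in mcPCs (3.40 to 3.69). Il17rc, its partner for IL-17A, had 25.8 and 3.96 TPM and a ratio of 1.88 towards VSMCs (1.78 to 1.98). Il17re (ENSRNOG00000009204), the receptor chain of IL-17C, had 7.69 and 0.283 TPM and was 8.05-fold higher in VSMCs (6.92 to 9.41). Il17rb, the chain for IL-25, was 30.4-fold higher in mcPCs (20.6 to 46.7) at 0.0954 and 0.843 TPM. Il17rd had a ratio of 1.18 (1.03 to 1.35).

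Of 10 other interleukin receptors, 8 were called higher in mcPCs (80%, against 22.0% of all genes) and Il13ra1 alone in VSMCs (10%, against 13.9%). Il3ra was the most abundant, with 31.2 and 23.96 TPM, and was 2.67-fold higher in mcPCs (2.57 to 2.78). The receptors of IL-4 and IL-13 went apart. Il4r had 2.82 TPM in VSMCs against 11.996 in mcPCs, 14.7-fold higher in mcPCs (13.8 to 15.7). Il13ra1, which joins it in the receptor of IL-13, had 10.1 and 0.550 TPM, 5.85-fold higher in VSMCs (4.88 to 7.04). Il2ra, the high-affinity chain of the IL-2 receptor, had 4.28 and 9.15 TPM and was 7.25-fold higher in mcPCs (6.87 to 7.66). Il21r was 32.8-fold higher (27.1 to 40.1) at 0.416 and 4.01 TPM. Il10rb, shared by IL-10 and IL-22, was 4.33-fold higher (3.999 to 4.70) and Il9r 3.05-fold (2.78 to 3.36). Il20rb and Il22ra1 were under 0.13 TPM in both, with ratios of 4.06 (2.0005 to 8.64) and 2.17 (1.59 to 2.97). Il15ra stayed within 2-fold at 1.49 (1.27 to 1.74).

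In all, 13 of the 66 genes, or 19.7%, were at least 16-fold higher in mcPCs, against 4.38% of all genes. Of the 13, 11 were under 0.8 TPM in VSMCs, where ratios towards mcPCs were common over the whole table. The share of all genes at that level that passed 16-fold was not computed, so the 4.38% is not matched for level. At least 10 TPM in mcPCs was reached by 2 of the 13, Cxcr4 and Cxcl12. Markers of other cells moved the same way. Of 16 microglia and macrophage markers 8 had a row and all 8 were called higher in mcPCs, against 22.0% of all genes. Only 1 of the 8 reached 0.8 TPM in VSMCs, and of all genes under that level 67.4% were called higher in mcPCs. The summed level of the 8 markers was 2.05 TPM in VSMCs and 59.1 in mcPCs, and their median log2 ratio on normalized counts was 6.09. Cx3cr1 belongs both to this list and to the 66 genes, and is among the 13, so its value is counted on both sides. Gene by gene, the levels ran from 0.0659 to 1.09 TPM and from 0.408 to 31.6 TPM. Ptprc, the leukocyte antigen CD45, had 0.0659 and 15.1 TPM, and Csf1r, the receptor of IL-34 and CSF1, 0.111 and 3.94 TPM. Of 17 markers of blood leukocytes 4 had a row, all under 0.8 TPM in VSMCs, and they summed to 1.35 and 32.7 TPM. Of the 4, 3 were called higher in mcPCs. Among these were Lck, a kinase of T cells, with 0.0795 and 11.3 TPM, and Ltb with 0.278 and 12.8 TPM. The defining T and B cell genes Cd3e, Cd3g, Cd3d and Cd79a had no row, nor had Aif1, Itgam and P2ry12 of microglia. A row needed a read in every sample, VSMCs included, so a missing row gives no level in mcPCs. Endothelial markers were called higher in mcPCs for 10 of 14, and the other 4 were within 2-fold. Their summed level was 652 and 255 TPM, most of it from Esam (487 and 184 TPM) and Slc2a1 (115 and 23.9 TPM), both within 2-fold. The sum therefore does not follow the called markers, such as Cldn5 with 0.643 and 15.4 TPM. Of 8 neuronal markers 5 had a row, all under 0.8 TPM in VSMCs, and all 5 were called higher in mcPCs. Their summed levels were 0.793 and 22.2 TPM, of which Tubb3 gave 0.131 and 15.7 TPM. Of 8 astrocyte markers 6 had a row, and 4 were called higher in mcPCs and 1 in VSMCs. Among markers with a row, those of perivascular fibroblasts were called higher in mcPCs for 4 of 7. Those of erythrocytes were called higher in mcPCs for 14 of 15. The part of these cells in the values of Cxcr4, Cxcl12 and the IL-12, IL-18 and IL-21 receptor chains was not tested.

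Early-response genes moved with the genes higher in VSMCs. Of 16 such genes, which are known to be induced while tissue is digested, 15 had a row. Of these, 14 were called higher in VSMCs, against 13.9% of all genes, and Nfkbia alone in mcPCs. Their summed level was 21157 TPM in VSMCs and 498 in mcPCs, but TPM is lowered in mcPCs by the erythrocyte share. On normalized counts their median log2 ratio was -3.61. Fos had 4441 and 45.2 TPM and was 29.0-fold higher in VSMCs on normalized counts. Atf3 had 652 and 8.15 TPM and was 23.6-fold higher. VSMCs had gone through a further digestion with harsher enzymes that mcPCs did not, so the digestion and the cell type cannot be told apart in Il6, Cxcl1, Ccrl2 and the other genes higher in VSMCs.

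**Figure D3:**
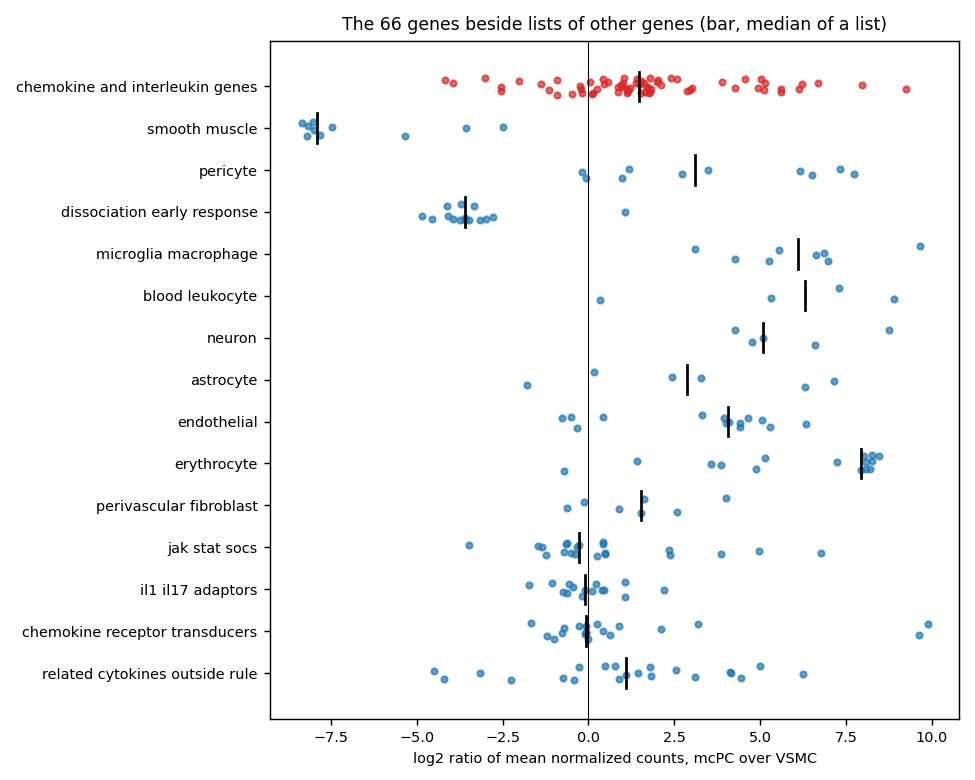
Log2 ratio of the authors' mean normalized counts, mcPCs over VSMCs, for each of the 66 genes (red) and for genes of the other lists (blue), with the median of each as a bar. The 66 genes have a median of 1.46, the early-response genes of -3.61 and the microglia and macrophage markers of 6.09. Cx3cr1 is plotted both among the 66 genes and among the microglia and macrophage markers.

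Genes that carry the signal inside the cell were spread around equal expression. Of 23 JAK, STAT and SOCS genes 21 had a row, 5 were called higher in mcPCs and 4 in VSMCs, and the median log2 ratio was -0.27. Of all genes, 22.0% were called higher in mcPCs and 13.9% in VSMCs, so these counts lie near those of the whole table. Socs3, the feedback inhibitor of IL-6 signalling, had the highest level, with 430 TPM in VSMCs against 11.4 in mcPCs and a log2 ratio of -3.49. Stat3, its main activator, had 116 and 14.2 TPM and -1.23. Jak3, the kinase of the common γ chain, had 0.463 and 4.31 TPM and 4.97. Ptpn6, a phosphatase of blood cells, had 0.283 and 9.82 TPM and 6.76, and Cish, Socs1 and Stat5a had log2 ratios of 3.85, 2.37 and 2.35. Of 15 adaptors of the IL-1 and IL-17 receptors 3 were called higher in mcPCs and 2 in VSMCs, again near the shares of all genes, with a median of -0.11. Nfkbia, the inhibitor of NF-κB, had the highest level of this list with 125 and 76.5 TPM. Nfkbia and Socs3 are also counted among the early-response genes above. For Socs3 too, the digestion and the cell type cannot be told apart. Myd88, the adaptor of IL-1 and IL-18 receptors, had 68.3 and 5.88 TPM and a log2 ratio of -1.74, and Irak2 3.11 and 4.22 TPM and 2.21.

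Of 19 genes that couple or restrain chemokine receptors, 4 were called higher in mcPCs and 3 in VSMCs, with a median of -0.06. These counts too lie near the shares of all genes, 22.0% and 13.9%. Rgs5, a restrainer of G proteins and a mural marker, was the highest, with 6298 and 1703 TPM and a log2 ratio of -0.06. Gnai2, the Gi subunit that chemokine receptors use, had 602 and 143 TPM and -0.27. Rgs1 and Pik3cg, both known from leukocytes, had log2 ratios of 9.62 and 9.89, from 6.67 and 1.33 reads per sample in VSMCs. Gng2 and Arrb2 had 3.20 and 2.12. Stat3, Myd88 and Gnai2 were named after their values were seen.

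**Figure D4:**
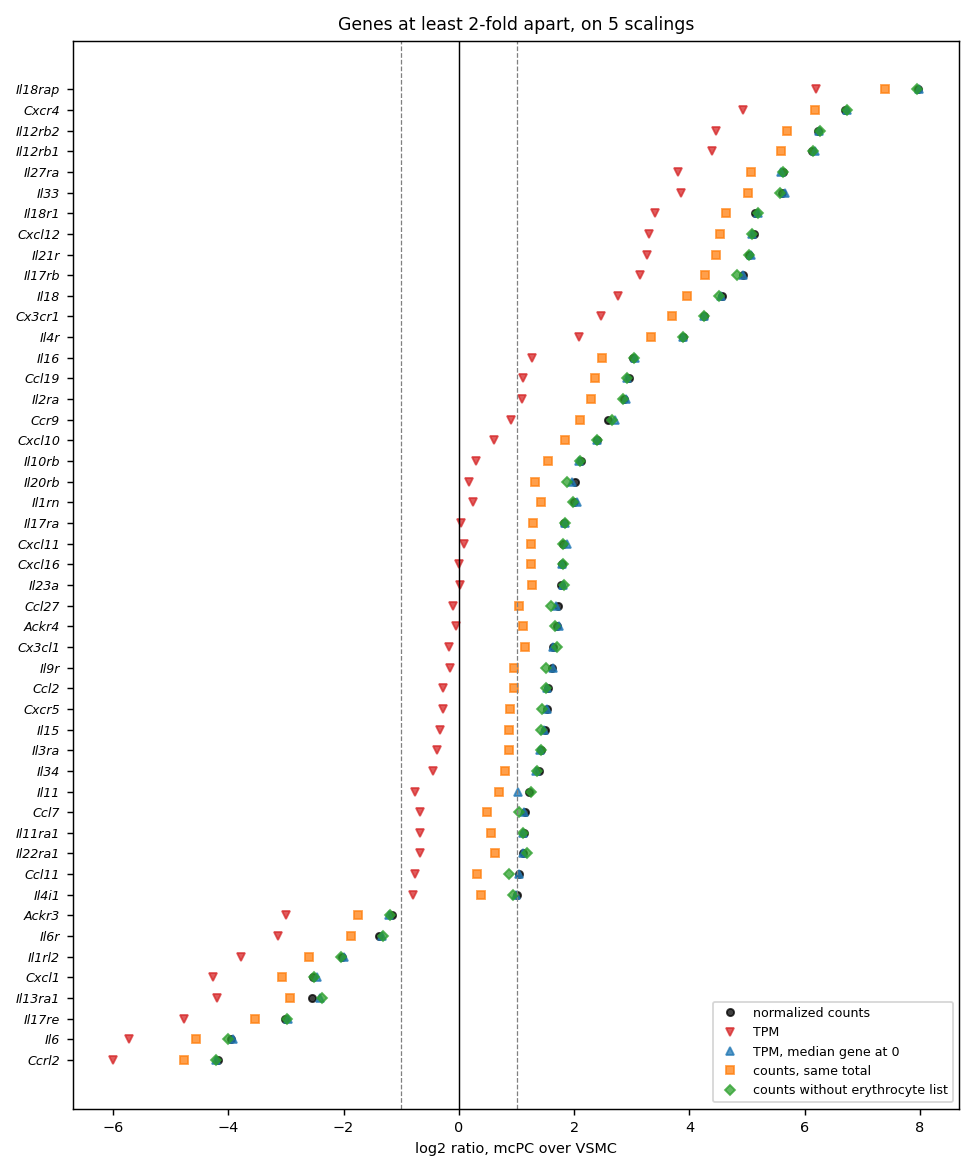
Log2 ratio, mcPCs over VSMCs, of the genes called on normalized counts, on 5 scalings, with 2-fold as dashed lines. Towards VSMCs, 8 genes lie at or beyond 2-fold on all 5 scalings.

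The scaling bears on the direction of the middle of the family. On all 5 scalings, 8 genes were called higher in VSMCs, the same 8 as on normalized counts (Ackr3, Ccrl2, Cxcl1, Il13ra1, Il17re, Il1rl2, Il6 and Il6r). Towards mcPCs, 17 genes held on all 5 (among them Ccl19, Cx3cr1, Cxcl12, Cxcr4, Il12rb1, Il12rb2, Il16, Il17rb, Il18, Il18r1, Il18rap, Il21r, Il27ra, Il2ra, Il33 and Il4r). Other genes called higher in mcPCs, among them Il34, Ccl2, Il3ra, Il11ra1 and Cx3cl1, turned to VSMCs on TPM as it stands, where 8.17% of all genes were called higher in mcPCs and 74.8% in VSMCs. Of the 66 genes, 25.8% were then called higher in mcPCs and 31.8% in VSMCs. With counts scaled to the same total, the shares were 43.9% and 16.7%, against 15.5% and 28.8% of all genes.

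Estimated reads of 16 of the 66 genes were not whole numbers within 0.05 reads, as happens when reads are split with transcripts of another gene. Among these were Cxcl12, Il13ra1, Il18r1, Il18rap, Il21r and Cx3cr1, and their values carry that uncertainty. RefSeq lists 139 protein-coding symbols of this rule for the rat, and 66 had a row. The other 73, such as Il1b, Il10, Ccl3, Ccl5, Ccr2, Ccr7, Cxcr3, Il7r and Il2rg, were not analysed here. A gene entered the authors' table when all samples had a read of it, so a missing row gives no level.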

How the data were processed

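Messenger RNA of 3 VSMC and 3 mcPC samples was sequenced, each library in 4 runs. The authors filtered reads with Eoulsan, ran Salmon 0.8.0 against Ensembl transcripts of Rnor_6.0, added the transcripts of a gene together (tximport) and used DESeq2 for normalization. They deposited 1 table. The TPM values deposited are means over a cell type. The estimated counts deposited by the authors are means per run, since 73.5% of those of VSMCs and 74.7% of those of mcPCs are whole multiples of 1 read over 12 runs, and were multiplied by 4 to give reads per sample. Its normalized counts (signal values deposited by the authors) are counts divided by the DESeq2 factors. Effective lengths were also deposited by the authors. The columns of the authors' own comparison (fold change, standard error, p-values) were not used.

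Samples were grouped by their titles. The table gives means only, so no model was fitted and the test intended for counts per sample was not run. Ratios of mean normalized counts were computed without a pseudocount, and 95% intervals by the exact conditional binomial (Clopper-Pearson) method on summed reads, which cover counting error only. Reads are not independent molecules. The intervals and calls were tested on simulated Poisson counts, which hold no variation between isolations, no shift from erythrocyte RNA and no split reads. That test checks the computation for counting error only. Alternatives were 4 other scalings, a pseudocount of 1, filters at 0.8 TPM in VSMCs and at 30 reads in each cell type, the whole interval beyond 2-fold, and a limit of 4-fold. The genes named had at least 10 TPM in a cell type, or were 2-fold apart with at least 30 reads in the higher one, or were chemokine receptors, and of the pathway lists those 4-fold apart and the highest. A few genes that enter the counts are not reported here. The genes and lists were chosen with earlier results of these data known. Promoters of RefSeq (GRCr8, another assembly than that of the table) were matched by Entrez gene number. Computations used scipy 1.17.1, pandas 2.3.3 and numpy 2.4.6 with matplotlib 3.10.9 under Python 3.11.15.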

Additional observations from a re-analysis of the deposited data

How the results depend on the processing

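No paired analysis was possible because the table holds means of each cell type, and for the same reason no sample was left out in turn. The number of genes called higher in mcPCs, 41, was 17 on TPM as it stands, 19 among genes with at least 0.8 TPM in VSMCs and 22 at 4-fold, and lay between 29 and 41 under the other 6 alternatives tried. The number called higher in VSMCs, 8, was 21 on TPM as it stands and lay between 6 and 11 under the others. The median log2 ratio of 1.46 was -0.35 on TPM as it stands, 0.87 on counts scaled to the same total, 1.001 with at least 0.8 TPM in VSMCs and 1.18 with at least 30 reads in each cell type. On TPM as it stands, which lowers the median of all genes by 1.79, the log2 ratio of 16 genes called higher in mcPCs fell below 0, to -0.67 for Ccl7, -0.38 for Il3ra, -0.32 for Il15, -0.27 for Ccl2, -0.75 for Ccl11, -0.054 for Ackr4, -0.27 for Cxcr5, -0.68 for Il11ra1, -0.17 for Cx3cl1, -0.77 for Il11, -0.45 for Il34, -0.80 for Il4i1, -0.16 for Il9r, -0.0029 for Cxcl16, -0.67 for Il22ra1 and -0.10 for Ccl27. On no other alternative did a called gene change sign. Depth limits the genes with few reads, since 12 of the 66 had under 30 reads over the 3 samples of a cell type, and the spread between isolations is not covered by any interval.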

Other observations

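Receptors and ligands of neighbouring cytokine families, which the symbol rule does not take in, were also examined. Of 29 such genes 21 had a row, and 11 were called higher in mcPCs and 4 in VSMCs, against 22.0% and 13.9% of all genes. Osmr and Lifr, which join Il6st in the receptors of oncostatin M and of leukemia inhibitory factor, had 27.9 and 0.357 TPM and 17.6 and 1.05 TPM in VSMCs and mcPCs, with log2 ratios of -4.50 and -2.25 (mcPCs over VSMCs). Tslp, an epithelial cytokine related to IL-7, had 48.7 and 0.737 TPM and a log2 ratio of -4.19, on 391 and 11.0 reads per sample. Its receptor chain Crlf2 had 19.8 and 15.3 TPM and a log2 ratio of 1.44. Cmklr1, the signalling receptor of chemerin, had 6.12 and 1.09 TPM and -0.75. In mcPCs, Csf2rb, the chain shared by the IL-3 and GM-CSF receptors, had 2.19 TPM against 0.0995 TPM in VSMCs, and Osm, the ligand of Osmr, 1.82 against 0.286 TPM, with log2 ratios of 6.23 and 4.44. Lep was at 0.177 and 0.00573 TPM with -3.16, and Csf3r, Cklf, Epor and Cntfr had log2 ratios of 2.55, 3.10, 4.12 and 4.16 at 3.07 TPM or less. Crlf2 and Cmklr1 were named after their values were seen. The highest of the list was Mif, a cytokine of many cells, with 180.3 and 71.7 TPM and a log2 ratio of 0.48. These ratios have no replicate check.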
